A study of Mus musculus with 4 samples.

Results

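The genes described here are the cadherins and protocadherins, taken as every gene symbol of the count files that begins with Cdh and a digit or with Pcdh, without the antisense entries that end in os. The rule gave 92 of the 32285 genes, and the 43 genes with at least 50 UMIs (unique molecular identifiers, each counted as 1 captured RNA molecule) are the ones described. Just inside this limit was Pcdhb16 with 62 UMIs, and just outside it was Pcdhb19 with 48. All 92 were found by identifier in the GENCODE vM21 annotation of GRCm38.

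Cadherins are calcium-dependent adhesion proteins whose outer repeats bind mainly the same cadherin on the neighbouring cell, so that the set of cadherins on a neuron influences which cells and synapses it adheres to. The type I and type II cadherins anchor to the actin skeleton through catenins, whereas Cdh13 is held in the membrane by a lipid (GPI) anchor and lacks the inner tail. The non-clustered delta protocadherins are known for restricted patterns in brain nuclei and cortical layers, and the clustered alpha, beta and gamma protocadherins give single neurons different surface identities through the choice among many promoters.

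Spatial transcriptomes (10x Visium, 1 brain section per mouse) were available from 2 trained and 2 untrained male ArcCreERT2::eYFPflx mice of 3 to 4 months on a C57BL/6 background. In this line the Arc promoter drives a tamoxifen-dependent Cre that switches on eYFP, and every mouse, controls included, carried both alleles, received isoflurane and 4-hydroxytamoxifen, and went through a retention test 3 days before the tissue was taken. Trained mice had learned active place avoidance (APA), in which a rotating arena holds a shock zone. Untrained mice were placed in the same arena with the shock turned off. With 2 mice a group, p-values of trained against untrained rest on the spread between these 4 sections.

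The tissue is labelled hippocampus, but by marker genes the sections also held cortex, thalamus, hypothalamus and striatum-like regions. Spots over tissue numbered 2359 to 3055 per section, with totals of 3560294 (untrained 1) to 10330015 UMIs (trained 2) and a median of 1048 to 2493 UMIs per spot. Spots were given to 1 of 15 regions by the marker list that led them, with 771 to 905 spots per section in none, and no cadherin or protocadherin was on a list. Since the lists assigned the spots, their levels describe the regions and test nothing. Averaged over sections each list was highest in its own region, but the CA2 list was higher in habenula than in CA2 in trained 1 (1217 against 998 CPM, UMIs per 1000000 UMIs of the region) and trained 2 (1211 against 1037), and in trained 1 the meninges list was highest in choroid plexus and the hypothalamus list in the ependymal region. The CA3 list stood at 738.6 to 854.4 CPM in the CA2 spots and 709.7 to 1007 in thalamus, against 1033 to 1299 in CA3. Its part in the calls of the CA2 spots was not tested. CA1 held 50 to 68 spots per section, CA2 15 to 37, CA3 14 to 33 and DG 76 to 85, and the ependymal region of untrained 1 had 6 spots and was left out. A spot can hold several cells, so that a region mean mixes cell types, and fewer cells of a type cannot be told apart from less RNA per cell.

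**Figure D1:**
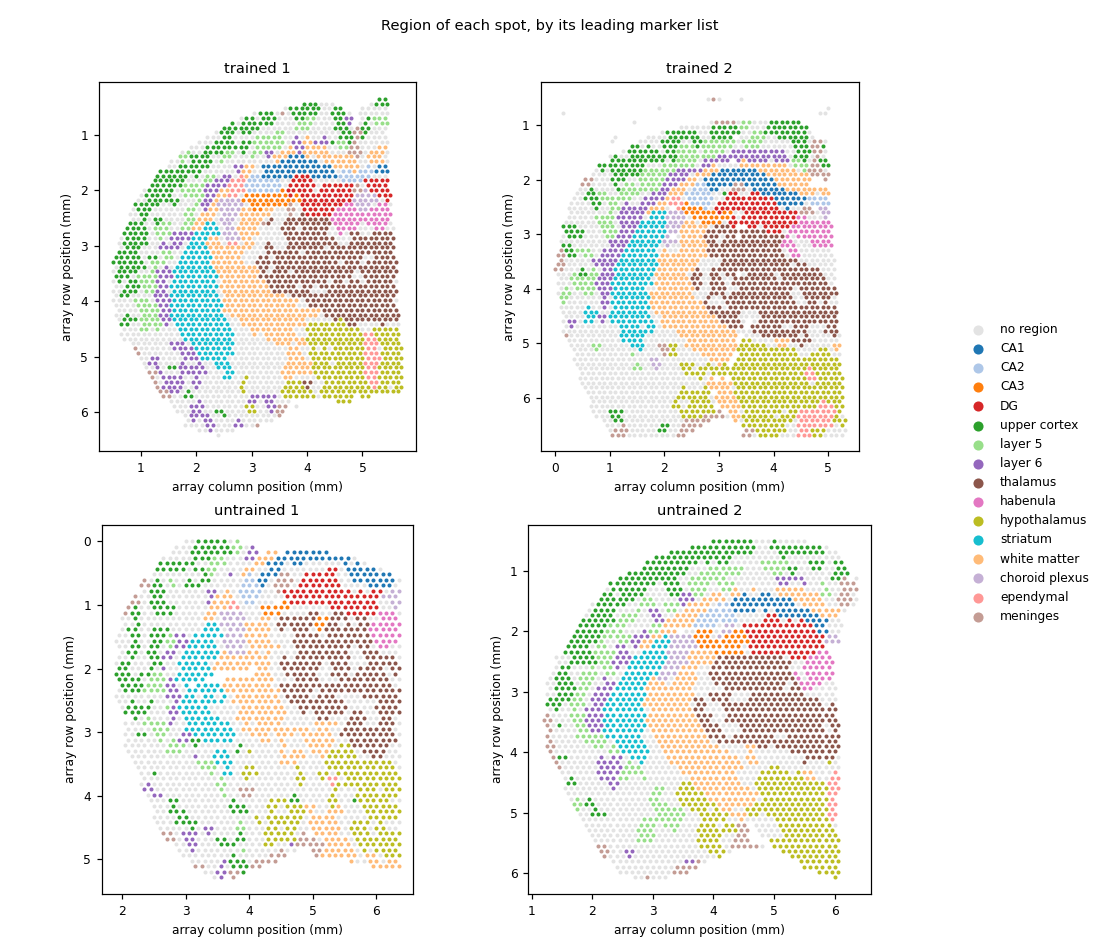
Position of every spot on the capture array (column and row position in mm) in the 4 sections, coloured by region, with spots given to no region in grey. CA1, CA3 and DG lie mostly above the thalamus in each section, and the hypothalamus lies at the lower edge.

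The subfamilies differed in how many UMIs they gave. The delta2 protocadherins had 6488 UMIs over 5 genes and the delta1 protocadherins 6165 over 4 genes, and all 9 genes passed the limit of 50. Of the 13 type II cadherins 12 passed, with 5023 UMIs in the subfamily, and of the 5 type I cadherins 3 passed (Cdh2, Cdh4 and Cdh15; 2469 UMIs). Cdh13 had 1744 UMIs. Among the clustered protocadherins the beta genes had 2770 UMIs, and 16 of 22 passed. The 14 alpha genes had 6 UMIs in all, with 8 genes at 0, and the 21 gamma genes had 47 UMIs, with 7 at 0. Alpha and gamma genes end in constant exons that their cluster shares: of their last 500 exonic bases 100% lie in other genes of the cluster, and reads there fit several genes at once. In each of the 16 beta genes described 0% was shared. Whether this sharing set the low alpha and gamma counts was not tested, and no level is read from them. The muscle cadherin Cdh15, singled out after its values were seen, was uneven between sections, with 31 UMIs in trained 1, 2 in trained 2, 27 in untrained 1 and 27 in untrained 2.

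**Figure D2:**
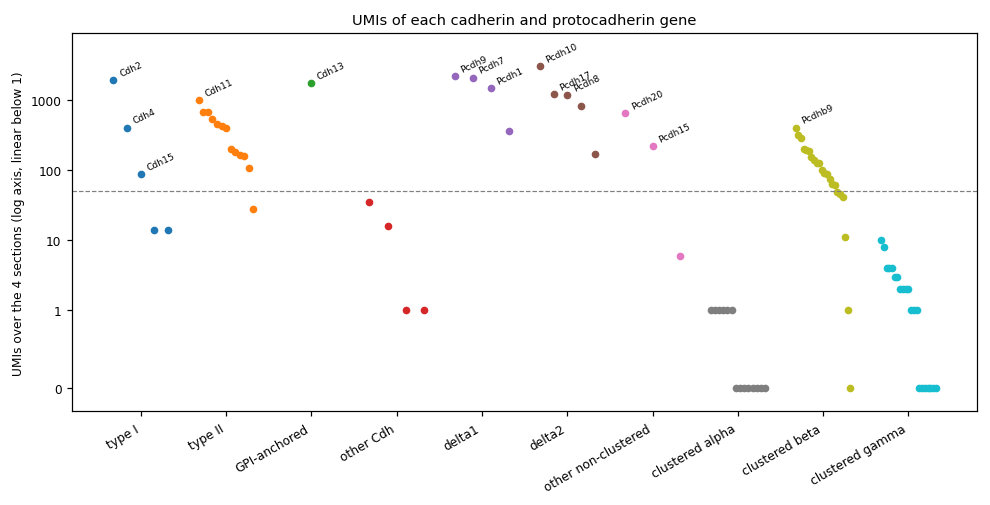
UMIs of each of the 92 genes over the 4 sections (y axis, logarithmic above 1), by subfamily (x axis), with 1 point per gene and a dashed line at 50 UMIs. The delta protocadherins, Cdh2 and Cdh13 lie between 170 and 3075 UMIs, whereas the alpha and gamma clusters lie below the line.

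To ask whether the regions carry different cadherins, sums of UMIs per region and section (59 in all) entered an edgeR fit that held section as a block. Of the 43 genes 13 passed the filter on low counts, which keeps a gene that is high in few sums and so favours genes that differ. All 13 differed between the regions (edgeR's quasi-likelihood F-test, Benjamini-Hochberg adjusted p from 1.03e-22 for Pcdh20 to 0.00801 for Cdh8). The background was high, since 68.5% of the 7147 genes tested did so too. When each region was set against the mean of the others, 54 of the 195 pairs of gene and region passed, against 17.8% of pairs over all genes. Of these 34 were higher in the region (10.8% over all genes) and 20 lower (6.96%). Pcdh20 passed in 9 regions, Cdh13, Pcdh7 and Pcdh19 in 6 each, and Cdh8 in 1.

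**Figure D3:**
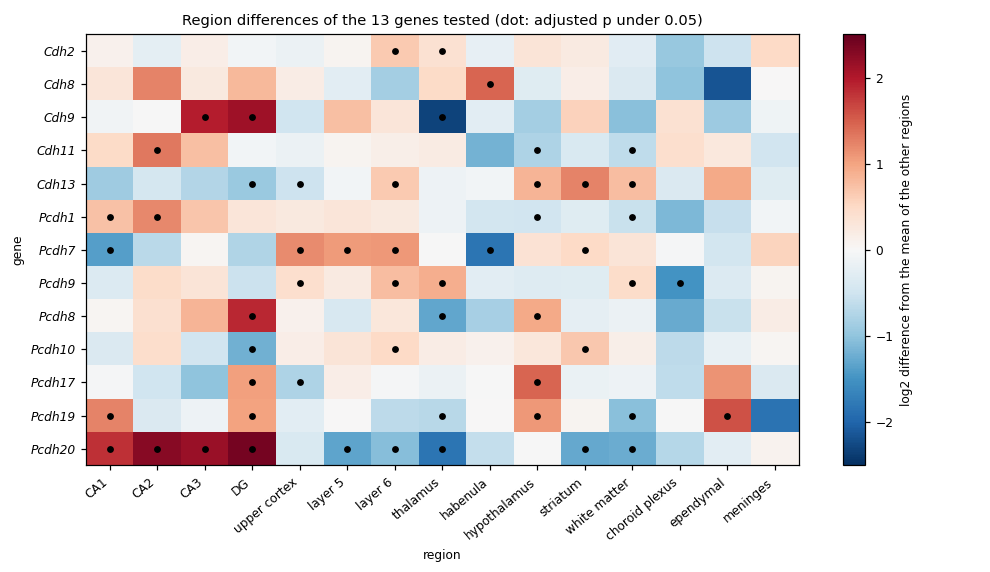
Fitted log2 difference of each of the 13 genes tested (rows) in each region from the mean of the other regions (columns), red where higher and blue where lower, with a dot where the adjusted p was under 0.05. Pcdh20 is red with a dot in all 4 hippocampal layers, and Pcdh7 in upper cortex, layer 5 and layer 6.

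Pcdh20, a protocadherin outside the delta groups at chr14:88464743-88471396 (GRCm38, minus strand), was the gene of the set most concentrated in the hippocampus. Its level in DG was 118 CPM in trained 1, 97.3 in trained 2, 171 in untrained 1 and 118 in untrained 2. The means were 126 ± 31.3 CPM in DG, 117 ± 35.8 in CA2, 95.1 ± 43.6 in CA3 and 84.0 ± 30.9 in CA1 (SD, n = 4). Outside these layers no region had a mean above 23.9 CPM (hypothalamus), and the 4 sections of the thalamus lay at 4.41, 5.30, 16.3 and 11.6 CPM. No section's DG value overlapped with any section's value in cortex, thalamus or white matter. The log2 difference from the other regions was 2.39 ± 0.25 (SE) in DG, 2.27 ± 0.35 in CA2, 2.16 ± 0.34 in CA3 and 1.83 ± 0.32 in CA1 (edgeR, adjusted p from 5.24e-14 to 2.68e-06). It was -1.82 ± 0.33 in thalamus (edgeR, adjusted p = 2.05e-06), and Pcdh20 was also lower in layer 5, layer 6, striatum and white matter. Each call was followed in other settings (another tool, filter, block or spot assignment, or a section left out). The layer 5 call was kept in 6 of 9 settings and the layer 6 call in 4 of 9. The hippocampal layers held 257 of the 517 Pcdh20 UMIs in spots with a region, or 50%, 46.0%, 50.7% and 54.1% in trained 1, trained 2, untrained 1 and untrained 2. The same layers held 10.3% to 13.4% of the UMIs of all genes. Pcdh20 could pass the filter on low counts through these layers alone, so its calls there are not independent of the filter.

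Cdh9, a type II cadherin known for adhesion at the synapse between DG mossy fibers and CA3 cells, lies at chr15:16728756-16857094 (plus strand) and was highest in DG and CA3. Its level was 70.1, 48.7, 80.8 and 49.9 CPM in the DG of trained 1, trained 2, untrained 1 and untrained 2, and 93.2, 29.2, 86.0 and 38.8 CPM in their CA3. In CA1 the 4 sections gave 26.8, 11.7, 23.4 and 0 CPM, from 4, 3, 2 and 0 UMIs, so that every DG and CA3 value lay above every CA1 value. The lowest CA3 value (29.2) was close to the highest CA1 value (26.8). The CA3 values rested on few UMIs too, since the CA3 spots of untrained 1 held 34904 UMIs over all genes. Cdh9 was higher in DG (log2 2.12 ± 0.30 SE) and CA3 (1.97 ± 0.42) than in the other regions, with edgeR's adjusted p of 1.30e-08 and 1.65e-04. These calls are not independent of the filter on low counts, which keeps a gene that is high in few sums. It left out Cdh10 with 682 UMIs over the 4 sections but kept Cdh9 with 401. The thalamus had 3.14 ± 2.38 CPM (SD, n = 4), the lowest mean of all regions, and a log2 difference of -2.32 ± 0.41 (edgeR, adjusted p = 1.39e-06).

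Pcdh8, a delta2 protocadherin (arcadlin) known to be induced by neuronal activity and to take part in cadherin uptake from synapses, lies at chr14:79766775-79771312 (minus strand) and was highest in DG. The level there was 181, 105, 89.8 and 99.7 CPM in trained 1, trained 2, untrained 1 and untrained 2, and the CA1 of the same sections had 40.1, 35.1, 35.0 and 37.1 CPM. DG lay above CA1 in all 4 sections with no overlap. The log2 difference of DG from the other regions was 1.89 ± 0.21 (SE, edgeR adjusted p = 1.40e-12). Pcdh8 was also higher in hypothalamus (67.5 ± 12.7 CPM, SD, n = 4; log2 0.95 ± 0.17, edgeR adjusted p = 4.73e-06) and lower in thalamus (log2 -1.29 ± 0.24, edgeR adjusted p = 2.78e-06).

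The promoters of these 3 genes are shown because they had the 3 largest log2 differences of the 5 genes called higher in DG. Each runs from 250 bases before to 50 after the RefSeq start (GRCm38.p6), 5′ to 3′ on the strand of the gene, and capitals mark motif matches, searched on both strands. The motifs marked were the E-box bound by basic helix-loop-helix factors, spelled CANNTG, and the TATA box, spelled TATAAA. Of the 92 genes 22 had an entry among these promoters.
Pcdh20, chr14:88471347-88471646, minus strand: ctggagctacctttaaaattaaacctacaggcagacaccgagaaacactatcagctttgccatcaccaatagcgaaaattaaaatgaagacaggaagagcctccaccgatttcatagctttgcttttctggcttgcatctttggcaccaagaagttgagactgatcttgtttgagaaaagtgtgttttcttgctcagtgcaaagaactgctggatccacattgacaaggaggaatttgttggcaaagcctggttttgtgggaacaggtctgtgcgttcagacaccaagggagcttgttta
Cdh9, chr15:16728665-16728964, plus strand: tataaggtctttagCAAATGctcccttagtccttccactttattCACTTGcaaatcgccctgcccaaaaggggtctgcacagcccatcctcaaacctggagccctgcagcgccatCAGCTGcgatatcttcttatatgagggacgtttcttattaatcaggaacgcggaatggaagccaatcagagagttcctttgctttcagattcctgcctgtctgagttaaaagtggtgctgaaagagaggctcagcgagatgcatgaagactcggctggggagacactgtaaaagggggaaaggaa
Pcdh8, chr14:79771263-79771562, minus strand: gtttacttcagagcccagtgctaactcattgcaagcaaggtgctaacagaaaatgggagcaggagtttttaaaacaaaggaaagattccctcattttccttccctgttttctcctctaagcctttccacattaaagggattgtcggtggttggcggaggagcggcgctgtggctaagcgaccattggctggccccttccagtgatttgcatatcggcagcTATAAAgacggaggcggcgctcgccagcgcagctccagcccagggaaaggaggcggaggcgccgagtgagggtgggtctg
The Cdh9 window held 3 E-box matches, and 72.3% of the 32817 promoters of this length held at least 1. The Pcdh8 window held 1 TATA box match, against 13.6% of all, and no E-box match. The Pcdh20 window held neither. Of the other genes called higher in DG, the Pcdh17 window held neither and the Pcdh19 window held 1 E-box match. None of the 5 windows held TGACGTCA, the full cyclic AMP response element, which 1.79% of all promoters held.

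Other genes of the set also differed between hippocampal layers and the rest. DG and CA1 were higher in Pcdh19, a delta2 protocadherin of the X chromosome whose loss in humans causes an epilepsy (log2 0.996 ± 0.28 and 1.24 ± 0.31, edgeR adjusted p = 0.00550 and 0.00216). Without trained 2 the CA1 difference was 0.71 (edgeR, adjusted p = 0.367), and without trained 1 the DG difference was 0.88 (edgeR, adjusted p = 0.103). CA2 was higher in Cdh11, a type II cadherin also known from mesenchyme, at 93.1, 124, 119 and 34.5 CPM in trained 1, trained 2, untrained 1 and untrained 2 (log2 1.31 ± 0.30, edgeR adjusted p = 6.86e-04; 1.02 and adjusted p = 0.136 without trained 2). Pcdh1, a delta1 protocadherin, was higher in CA2 (log2 1.19 ± 0.25, edgeR adjusted p = 2.15e-04) and CA1 (0.74 ± 0.22, edgeR adjusted p = 0.0137). The CA1 call of Pcdh1 was lost without trained 2 or untrained 2 (log2 0.66 and 0.51). Pcdh17, a delta2 protocadherin, was higher in DG (log2 1.03 ± 0.23, edgeR adjusted p = 2.71e-04), although not past the threshold without trained 1 (0.84, edgeR adjusted p = 0.0523). DG was lower in Pcdh10, at 44.3, 44.9, 44.9 and 42.8 CPM (log2 -1.20 ± 0.25, edgeR adjusted p = 8.96e-05), and in Cdh13 (log2 -0.93 ± 0.30). CA1 was lower in Pcdh7 (log2 -1.38 ± 0.37, edgeR adjusted p = 0.00472). In all, 4 of the 13 genes passed in CA1 against 11.9% of all genes, 3 in CA2 (9.47%), 2 in CA3 (13.0%) and 7 in DG (18.6%).

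A fit on CA1, CA3 and DG alone (12 sums) asked which genes set these layers apart from each other. Of 7 genes tested, 2 differed (Pcdh8 and Cdh9, edgeR adjusted p = 1.42e-06 and 7.22e-04), against 26.0% of all genes tested there. Between CA1 and DG both passed (13.2% of all genes): Pcdh8 was lower in CA1 by a log2 of -1.76 ± 0.30 and Cdh9 by -2.06 ± 0.47 (edgeR, adjusted p = 1.65e-06 and 4.98e-04). Between CA1 and CA3 only Cdh9 of the 7 passed (12.3% of all genes), at -1.88 ± 0.55 (edgeR, adjusted p = 0.0101). That call was lost without untrained 2 (-1.60, edgeR adjusted p = 0.0752) and was kept in 4 of the 6 settings that tested it. Between CA3 and DG only Pcdh8 of the 7 passed (21.2% of all genes), at -1.06 ± 0.30 (edgeR, adjusted p = 0.00394), and it was lost without trained 1 (-0.95, edgeR adjusted p = 0.0960). With no filter on low counts Pcdh17 was also called, at -1.97 ± 0.45 between CA3 and DG (edgeR adjusted p = 7.08e-04), a larger difference than that of Pcdh8. For Cdh9 the difference of CA3 from DG was -0.17 ± 0.38, which leaves room for a change in either direction. For Pcdh20 the differences between the layers were -0.33 ± 0.31 (CA1 minus CA3), -0.57 ± 0.26 (CA1 minus DG) and -0.24 ± 0.27 (CA3 minus DG), and none passed. Without trained 1 only Pcdh8 of the 5 genes then tested differed between the layers.

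**Figure D4:**
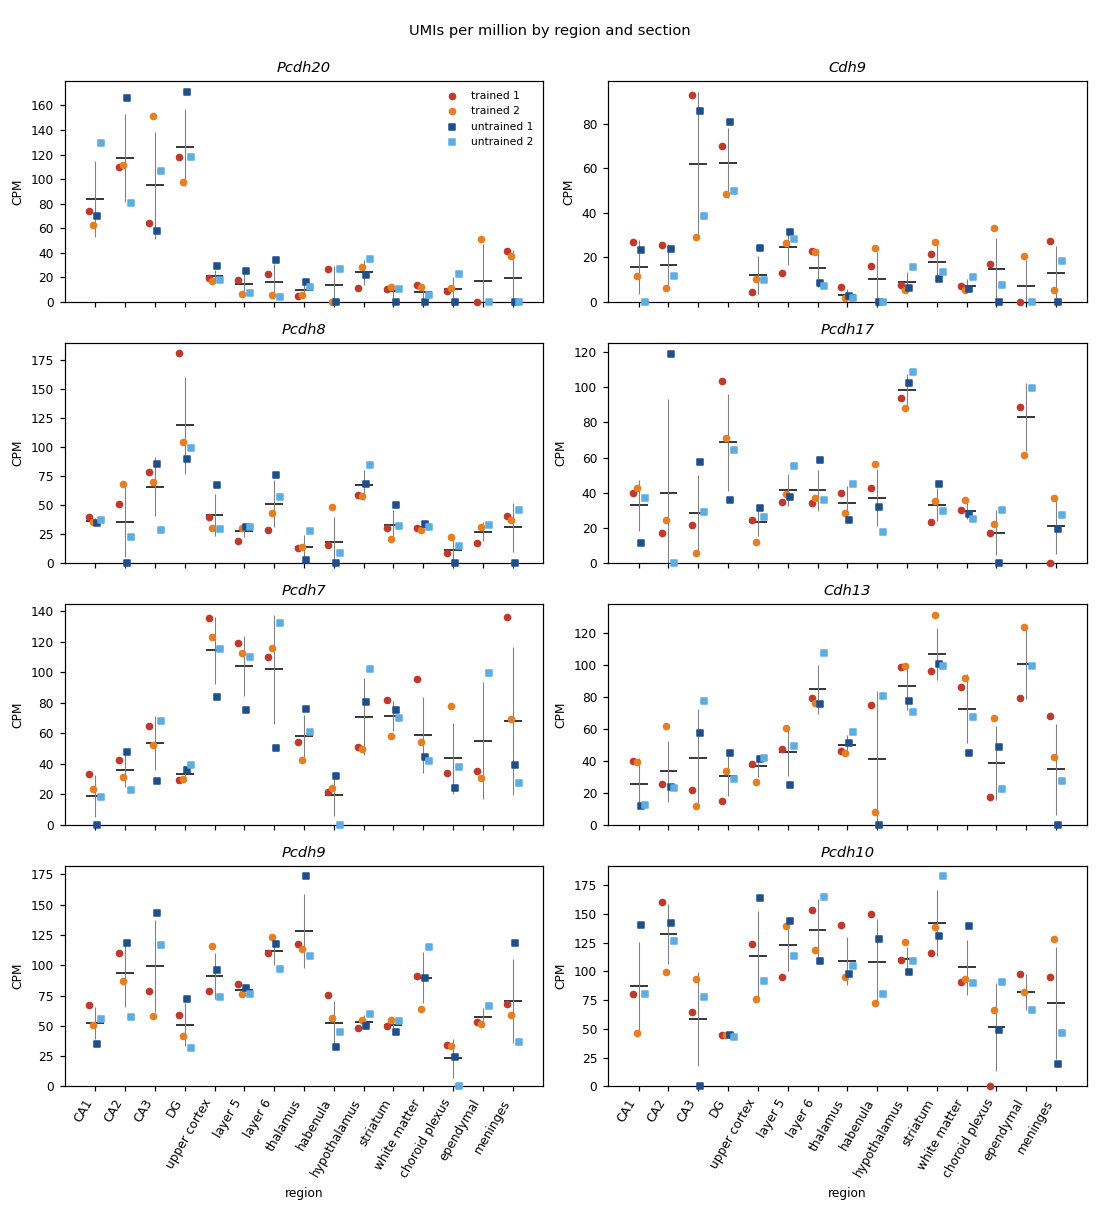
Level in CPM (y axis, from 0) of 8 genes in each region (x axis), with circles for trained and squares for untrained sections, a black line at the mean and a grey bar of 1 SD (n = 4, or 3 in the ependymal region). Pcdh20 stands above 55 CPM in every section of the 4 hippocampal layers, and Pcdh7 has its highest means in the cortical regions.

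The cortical regions were marked by Pcdh7, a delta1 protocadherin at chr5:57717967-58133230 (plus strand). Its level in upper cortex was 136, 123, 84.2 and 115 CPM in trained 1, trained 2, untrained 1 and untrained 2, and in layer 5 it was 119, 113, 75.1 and 110 CPM. In CA1 the same sections gave 33.4, 23.4, 0 and 18.5 CPM, and all cortical values lay above these. Pcdh7 was higher in upper cortex (log2 1.18 ± 0.14), layer 6 (1.08 ± 0.16) and layer 5 (1.07 ± 0.15), with edgeR's adjusted p from 1.98e-11 to 4.57e-08, and lower in habenula (-1.82 ± 0.45, edgeR adjusted p = 0.00208). Pcdh9, another delta1 protocadherin, was higher in layer 6 (112 ± 11.7 CPM, SD, n = 4; log2 0.77 ± 0.14, edgeR adjusted p = 6.39e-06) and in upper cortex (log2 0.42 ± 0.13, edgeR adjusted p = 0.0120; 0.24 and adjusted p = 0.328 without trained 2). Layer 6 was also higher in Cdh2 (N-cadherin, the main type I cadherin of synapses; log2 0.66 ± 0.15), Cdh13 (0.65 ± 0.17) and Pcdh10 (0.51 ± 0.15), whereas upper cortex was lower in Pcdh17 (-0.77 ± 0.22) and Cdh13 (-0.53 ± 0.19, edgeR adjusted p from 4.86e-04 to 0.0330 for these 5). The 13 genes had 4 calls in upper cortex (23.0% of all genes), 2 in layer 5 (18.7%) and 6 in layer 6 (17.0%).

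In the thalamus Pcdh9 had the largest log2 difference above the other regions among the 13 genes that passed the filter, at 118, 114, 173 and 107 CPM in trained 1, trained 2, untrained 1 and untrained 2, against 51.0 ± 17.8 CPM in DG (SD, n = 4). All 4 thalamic values lay above all 4 DG values, of which the highest was 71.8 CPM. The region next by mean was layer 6, at 112 CPM, which was above the lowest thalamic value. Thalamus and layer 6 thus overlapped in Pcdh9. The log2 difference was 0.90 ± 0.11 (SE, edgeR adjusted p = 1.43e-11). Cdh2 was higher there by 0.38 ± 0.13 (edgeR, adjusted p = 0.0113), a call that was lost without trained 2 (0.29) or untrained 2 (0.31). Of the 13 genes 6 passed in thalamus, against 34.7% of all genes. The others were Cdh9, Pcdh20 and Pcdh8, given above, and Pcdh19 (log2 -0.70 ± 0.24), all 4 lower in thalamus.

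In the hypothalamus the gene with the largest log2 difference among the 13 that passed the filter was Pcdh17. This delta2 protocadherin, known from topographic corticobasal circuits, had 94.2, 88.4, 102 and 109 CPM in trained 1, trained 2, untrained 1 and untrained 2. The upper cortex of these sections had 24.8, 11.8, 31.3 and 26.4 CPM, with no overlap. The region next by mean was the ependymal region, at 83.25 CPM. The log2 difference of the hypothalamus was 1.46 ± 0.14 for Pcdh17 and 1.09 ± 0.19 for Pcdh19 (edgeR, adjusted p = 1.02e-15 and 1.94e-06), beside the rise of Pcdh8 given above and of Cdh13 (0.85 ± 0.14, edgeR adjusted p = 6.19e-07). Pcdh8, Pcdh17 and Pcdh19 were also higher in DG. Pcdh10, which like these is a delta2 gene, was lower in DG (log2 -1.20), missed the threshold in the hypothalamus (0.28, edgeR adjusted p = 0.0952) but passed with no filter on low counts (0.33, edgeR adjusted p = 0.0358). Cdh11 was lower (-0.77 ± 0.20, edgeR adjusted p = 0.00156), as was Pcdh1 (-0.48 ± 0.16, edgeR adjusted p = 0.0140). The Pcdh1 difference was -0.42 without untrained 1 (edgeR, adjusted p = 0.0650), and the call was kept in 5 of the 9 settings that tested it. Of the 13 genes 6 passed in the hypothalamus, against 29.0% of all genes.

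The habenula had 2 calls (13.2% of all genes), of which Cdh8, a type II cadherin, was the higher one. It stood at 32.2, 32.3, 128 and 71.7 CPM in trained 1, trained 2, untrained 1 and untrained 2, from 4 to 8 UMIs each (log2 1.46 ± 0.46, edgeR adjusted p = 0.0193). Without untrained 1 the value was 1.28 (edgeR, adjusted p = 0.0581) and without untrained 2 it was 1.10 (edgeR, adjusted p = 0.250), so that the call rests on both. Cdh8 could pass the filter on low counts through its few high sums, so the call is not independent of the filter. The striatum, led by the marker list of medium spiny neurons, had 4 calls (20.0% of all genes). Cdh13 was at 96.3, 131, 101 and 99.4 CPM there, and Pcdh10 at 116, 139, 131 and 183 CPM. Cdh13 lay above every section's value in DG and CA1 (at most 44.9 CPM), with a log2 difference of 1.24 ± 0.15, and that of Pcdh10 was 0.66 ± 0.14 (edgeR, adjusted p = 4.95e-11 and 1.05e-04). Other regions came close by mean. For Cdh13 the ependymal region had 100.9 CPM against 106.9 in striatum, and for Pcdh10 layer 6 had 136.4 against 142. Pcdh7 was higher by 0.49 ± 0.17 (edgeR, adjusted p = 0.0336), a call lost without trained 1 (0.43), untrained 1 (0.46) or untrained 2 (0.42). It was kept in only 2 of the 9 settings that tested it.

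The white matter, led by myelin genes, had 6 calls (29.5% of all genes), with Cdh13 (log2 0.77 ± 0.17, edgeR adjusted p = 1.05e-04) and Pcdh9 (0.45 ± 0.15, edgeR adjusted p = 0.0125) higher and Pcdh20, Pcdh19, Cdh11 and Pcdh1 lower. The Pcdh9 difference was 0.42 without trained 1 and 0.19 without untrained 2, and neither passed. The 6 interneuron markers, all detected, were higher in the white matter spots than in any other region in each section, at 1962 to 3740 CPM against 1595 to 1916 in layer 5, the region next by mean, and their part in these differences was not tested. In the choroid plexus 1 gene passed (17.7% of all genes): Pcdh9 was at 34.3, 33.3, 24.4 and 0 CPM, from 4, 3, 1 and 0 UMIs (log2 -1.50 ± 0.43, edgeR adjusted p = 0.00649; -0.98 and adjusted p = 0.166 without untrained 2). In the ependymal region, with 3 sections, Pcdh19 was higher (log2 1.59 ± 0.44, edgeR adjusted p = 0.0132; 6.44% of all genes), at 124, 51.5 and 33.2 CPM, from 14, 5 and 1 UMIs in trained 1, trained 2 and untrained 2. The 12 hypothalamic markers, all detected, summed to 2984, 3810 and 2387 CPM in these spots, Pcdh19 was higher in the hypothalamus too, and the part of this in the difference was not tested. The meninges had 0 calls by edgeR among the 13 genes (1 at an unadjusted p under 0.05), against 4.09% of all genes.

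Among the 58 calls of a gene in a region or between hippocampal layers, 34 kept their side of the threshold with each section left out in which they were tested. Of these 34, Cdh9 in CA3, DG and thalamus was tested with 3 of the sections left out in turn, Cdh9 between CA1 and DG with 2, and Pcdh19 in the ependymal region with 1, since the gene or the region was otherwise not tested. Calls lost without a section that are not given above were the following, with the log2 value then found. Without trained 1 they were Cdh13 in DG (-0.57) and in upper cortex (-0.47), Pcdh10 in layer 6 (0.43) and Pcdh19 in thalamus (-0.68). Without trained 2 they were Pcdh20 in layer 5 (-0.998) and layer 6 (-0.51), Pcdh19 in thalamus (-0.63) and white matter (-0.92), Pcdh17 in upper cortex (-0.41), Cdh13 in upper cortex (-0.22), Cdh11 in white matter (-0.36) and Pcdh1 in white matter (-0.61). Without untrained 2 they were Pcdh20 in layer 5 (-1.09) and layer 6 (-0.83), Pcdh19 in thalamus (-0.47) and white matter (-0.90), Pcdh10 in layer 6 (0.46), Cdh13 in DG (-0.83) and upper cortex (-0.53) and Cdh11 in white matter (-0.54). No call changed its direction.

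The 30 genes that the filter left out are too low for most sums, and were followed with no filter. All 43 genes were then tested and 23 differed between the regions, against 36.1% of 19664 genes (edgeR, adjusted p under 0.05). Of 645 pairs of gene and region 77 passed, or 11.9%, against 7.55% over all genes. From the 30 genes came 24 of their 450 pairs (5.33%), in 16 genes (53.3%), and in each the gene was higher in the region. These shares lay near the background: of the 6196 genes that the filter left out with at least 50 UMIs, 45.0% were called in a region, 4.88% of their pairs were called (4.42% higher), and 90.7% of the called pairs were higher. These were named after their values were seen. In the hypothalamus they were Cdh4 (R-cadherin; 17.0, 29.7, 28.0 and 26.8 CPM in trained 1, trained 2, untrained 1 and untrained 2; log2 1.90 ± 0.28), Pcdh15 (1.88 ± 0.35), Pcdh18 (1.71 ± 0.38), Pcdh11x (1.28 ± 0.27) and Cdh22 (1.15 ± 0.21), with Pcdh18 having the highest of their adjusted p by edgeR, 1.02e-04. Cdh4 was also higher in thalamus (1.75 ± 0.27) and striatum (1.27 ± 0.35). Cdh6, a type II cadherin, was higher in upper cortex (26.3, 33.7, 14.4 and 29.2 CPM; log2 1.46 ± 0.26, edgeR adjusted p = 1.34e-06), layer 5 and thalamus. In white matter Cdh19, a cadherin known from Schwann and other glial cells, had 16.4, 18.4, 16.8 and 11.2 CPM and a log2 difference of 2.03 ± 0.39 (edgeR, adjusted p = 6.20e-06), beside Cdh20 (1.21 ± 0.27) and Cdh10 (0.98 ± 0.24). Cdh24 was higher in CA3 (2.67 ± 0.66, edgeR adjusted p = 0.00225) on 2, 6, 0 and 2 UMIs. Cdh5 (VE-cadherin, the cadherin of endothelial junctions) was higher in the meninges (2.31 ± 0.62, edgeR adjusted p = 0.0147) on 1, 5, 1 and 3 UMIs. The 6 endothelial markers, all detected there, summed to 355 to 563 CPM in the meninges and to 174 to 199 CPM in CA1, and their part in the Cdh5 difference was not tested.

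The beta cluster was too low to be tested gene by gene with the filter. Its 16 described genes had 62 (Pcdhb16) to 403 UMIs (Pcdhb9) each, and none passed the filter. Without the filter Pcdhb20 in striatum (log2 1.13 ± 0.32), Pcdhb14 in upper cortex (1.24 ± 0.44) and Pcdhb18 in white matter (1.57 ± 0.55) passed (edgeR, adjusted p from 0.00835 to 0.0499). The UMIs of all 22 beta genes together, a sum formed after the data were seen and not tested, ran from 63.4 ± 21.7 CPM in the meninges to 116 ± 27.0 CPM in upper cortex (SD, n = 4). CA1 lay at 115 ± 27.1, CA3 at 86.9 ± 12.7, DG at 102 ± 30.2 and thalamus at 104 ± 7.87 CPM, and the ranges of these 4 overlapped. The meninges value rested on 5 and 17 UMIs of the trained and 2 and 6 of the untrained sections, and its range (39.4 to 90.6 CPM) overlapped with that of DG, CA3, hypothalamus and white matter among others.

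Partners of the cadherins were followed as lists. Of 18 catenins and binding partners 15 were tested and 14 differed between the regions, beside 68.5% of all genes tested, with 44 of 225 pairs of gene and region called (19.6%; 31 higher and 13 lower). Ctnnb1 (beta-catenin, which links cadherin tails to alpha-catenin) was higher in thalamus (log2 0.72 ± 0.07) and Pkp4 in white matter (1.11 ± 0.11, edgeR adjusted p = 2.32e-16 and 9.24e-15). Ctnna1 (alpha-catenin, the link to actin) was higher in choroid plexus (log2 1.83) and Ptprm, a receptor phosphatase, in thalamus (1.13, edgeR adjusted p = 9.05e-09 and 2.92e-09). Of 17 other members of the cadherin superfamily 6 were tested and all 6 differed, with 35 of 90 pairs called (38.9%; 20 higher and 15 lower). Clstn2, a calsyntenin of the postsynaptic membrane, was higher in CA3 (log2 1.72 ± 0.21, edgeR adjusted p = 4.66e-11), and Clstn1 in upper cortex (0.61 ± 0.07, edgeR adjusted p = 3.46e-13), layer 5 (0.54 ± 0.07) and layer 6 (0.51 ± 0.07). Of 8 regulators of the clustered protocadherins 4 were tested and 1 differed, with 2 of 60 pairs called (3.33%): Rad21, a cohesin subunit, in white matter (0.42 ± 0.13) and Ctcf, which loops the cluster promoters to enhancers, in choroid plexus (1.01 ± 0.36, edgeR adjusted p = 0.00839 and 0.0362). The shares of genes that differed, 6 of 6 and 1 of 4, stand beside the same 68.5%, and the shares of pairs beside 17.8% of pairs over all genes and 27.7% for the 13 cadherins and protocadherins.

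To ask whether APA training went with other cadherin levels, the sums over the hippocampal layers of the trained sections were compared with those of the untrained sections. By edgeR 0 of the 14 genes tested passed the threshold and 0 had an unadjusted p under 0.05. The background was 0 of 8651 genes called (0%), with 423 at an unadjusted p under 0.05, and DESeq2 also called 0 of the 14. Of the 14 genes 8 were higher in trained, with a median log2 of 0.06, beside 0.0047 over all genes. The smallest p belonged to Pcdh8, at 106 and 70.1 CPM in the trained and 58.4 and 61.6 CPM in the untrained sections. The trained values lay above the untrained values, as in 6 of the 43 genes described (29 overlapped, and the share over all genes was not counted). The log2 difference of Pcdh8 was 0.53 ± 0.26 (SE, edgeR unadjusted p = 0.0595, adjusted p = 0.921). The difference was 0.25 without trained 1, 0.09 with sums thinned to the smallest total and 0.08 with spots assigned by their own score alone. Cdh10, a type II cadherin, was at 11.8 and 11.7 CPM in trained and 25.5 and 20.5 CPM in untrained, from 7 to 13 UMIs each (log2 -0.90 ± 0.47, edgeR adjusted p = 0.921). Pcdh1 was at 79.6 and 66.6 CPM in trained and 102 and 88.5 CPM in untrained (log2 -0.35 ± 0.23, edgeR adjusted p = 0.926), and this sign turned, to 0.07, with spots assigned by their own score alone. In the whole sections Pcdh1 stood at 49.6 and 41.7 CPM in trained and 83.1 and 61.4 in untrained. Trained lay below untrained without overlap in CA1, DG, upper cortex, layer 5, hypothalamus, striatum and white matter, and overlapped elsewhere. These regions share the same 4 sections, and with 2 sections a group such separation was common, since of the 43 genes described 23 to 33 overlapped in each of these regions and the rest did not. The share over all genes was not counted, so nothing is read from this separation. None of these differences passed within its region, and the smallest p was in upper cortex (54.0 and 42.1 against 89.0 and 75.0 CPM, log2 -0.84 ± 0.28, edgeR adjusted p = 0.490). None of the 3 differences in the hippocampal layers passed the threshold.

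The other 11 genes ran from -0.25 ± 0.21 (Pcdh20) to 0.40 ± 0.27 (Cdh11). For Cdh9 the difference was 0.08 ± 0.41 and for Pcdh20 -0.25 ± 0.21, and neither passed the threshold. Marker lists of other cells moved between the sections too: the 6 astrocyte markers summed to 1066 and 1685 CPM in the trained and 1190 and 991 CPM in the untrained hippocampal layers, the 6 microglia markers to 285 and 470 against 274 and 310 CPM, and the 9 choroid plexus markers to 3327 and 283 against 1263 and 2356 CPM, all markers detected. These 3 lists overlapped between the groups. The 6 interneuron markers (1057 and 1312 CPM in trained, 858 and 937 in untrained) and the 6 endothelial markers (192 and 256 in trained, 164 and 182 in untrained), also all detected, lay higher in both trained sections. Their part in these values was not tested.

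**Figure D5:**
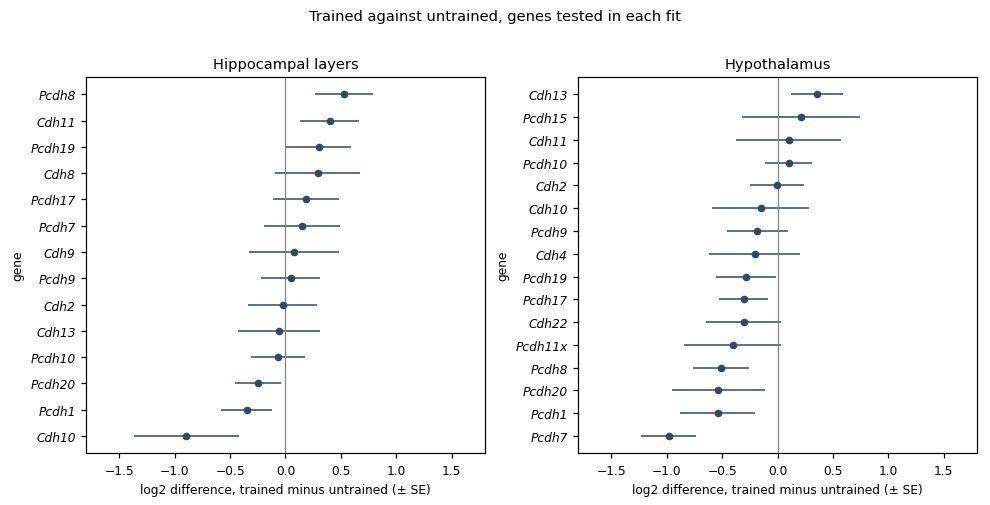
Log2 difference of trained minus untrained sections (x axis, points with bars of 1 SE) for each gene tested (y axis) in the hippocampal layers (left, 14 genes) and in the hypothalamus (right, 16 genes). In the hippocampus the points lie between -0.90 and 0.53, and in the hypothalamus Pcdh7 lies lowest at -0.98.

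Within single regions, 129 pairs of gene and region could be tested in 12 regions, and 0 passed by edgeR, against 0.0889% of pairs over all genes. At an unadjusted p under 0.05 there were 5 pairs, or 3.88%, against 5.94% over all genes, and DESeq2 called 0, with 1 at an unadjusted p under 0.05. Of the 129 pairs 48 were higher in trained and 81 lower, with a median log2 of -0.22 against 0.01 over all genes. These pairs share 4 sections and are not independent. The median was below 0 in CA1, the cortical regions, striatum, thalamus, hypothalamus and white matter, from -0.10 in layer 6 to -0.69 in CA1 (4 genes), and above 0 in DG (0.10), CA2 (0.05), CA3 (0.13) and habenula (0.33, 1 gene).

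The pair closest to the threshold, singled out after its values were seen, was Pcdh7 in the hypothalamus. Its level was 50.9 and 49.7 CPM in the trained and 80.8 and 102 CPM in the untrained sections, so that the groups did not overlap. Of the 43 genes described 26 overlapped there, and the share over all genes was not counted. The log2 difference of Pcdh7 was -0.98 ± 0.25 (edgeR, adjusted p = 0.0527, with 0.358% of all genes passing in this region). The call changed with the setting: edgeR's adjusted p was 0.0157 with the replicate number as a block (log2 -0.98) and 0.0357 without untrained 1 (log2 -1.10), whereas it was 0.297 with a stricter lead of the marker list and 0.9999 with DESeq2. The 12 hypothalamic markers summed to 2843 CPM in trained 1, 14970 in trained 2, 7816 in untrained 1 and 7184 in untrained 2, so that the hypothalamic spots of the sections differed in their marker content, and the part of this in the Pcdh7 difference was not tested. In DG, Pcdh19 (0.89 ± 0.46), Pcdh17 (0.73 ± 0.39) and Pcdh8 (0.64 ± 0.33) had the smallest p, each with edgeR's adjusted p of 0.986.

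Whether training went with different changes in different regions was tested as an interaction. Over CA1, CA3 and DG 0 of 11 genes passed by edgeR (0 at an unadjusted p under 0.05), against 0.0215% of 4645 genes. In a fit over all 14 regions with 4 sections, added after the data were seen, 0 of 15 passed, with 2 at an unadjusted p under 0.05 (Pcdh7 and Cdh13, edgeR adjusted p = 0.424 and 0.956), against 0.209% of 8607 genes.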

How the data were processed

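The authors deposited filtered UMI counts per gene and spot for each section, made with Space Ranger on mm10. The study's methods give version 2.0.0, the deposited file headers 1.2.2, and the submitters' processing notes list other names (Cell Ranger 8, GRCm39) without a role. The count files held 32285 genes. Each section is 1 mouse and the replicate. Genes, marker lists and pathway lists were chosen with earlier results of these data known. Spots were scored on 15 marker lists and given to the leading list. The level of each marker was averaged with that of the neighbouring spots in 2 rounds. Markers were weighted by their correlation between neighbouring spots. Hippocampal and habenula spots outside their largest joined patch were given to no region. UMIs were summed per section and region with at least 10 spots. Sums were tested with edgeR 4.0.16 (R 4.3.3; filterByExpr, TMM, quasi-likelihood F-test), with section as a block between regions, Benjamini-Hochberg adjustment over all genes tested and a threshold of 0.05. DESeq2 1.42.0 was an alternative. By rule, the genes named were the 2 called genes highest in each region, up to 3 called genes in each direction between hippocampal layers, the 3 with the smallest p for training where none was called, and up to 4 partners per list with the smallest p; all other genes named were chosen after their values were seen. Depth per section was 3560294 to 10330015 UMIs, and intervals cover the spread between sections only. Doublet callers do not apply to spots and were not used.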

Additional observations from a re-analysis of the deposited data

How the results depend on the processing

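Of the 58 calls of a gene, 30 kept their side of the threshold in every setting that tested them, and 0 turned direction. Most were lost with spots assigned by their own score alone, where 34 calls were kept and 18 fell below the threshold. The calls kept in the fewest settings were Pcdh7 in striatum (2 of 9) and Cdh13 in upper cortex (3 of 9). With no filter on low counts, 24 genes of the set (1 of them under 50 UMIs) differed between regions in place of 13, and with each section left out it was 11 to 15. The pairs of gene and region called were 41 to 58 with each section left out, against 54. Between CA1, CA3 and DG, 1 gene in place of 2 differed with spots assigned by their own score alone, and 1 to 2 with each section left out (1 without trained 1). The pair calls there fell from 4 to 2 with DESeq2, to 1 with single-spot scores, and were 1 to 4 with each section left out (1 without trained 1). Within regions, trained against untrained gave 0 to 1 calls with each section left out, the 1 being Pcdh7 in hypothalamus without untrained 1. The deviations of same-numbered sections did not correlate (r = -0.0103 over 8260 genes), which cannot show whether these mice shared a batch. With the replicate block 1 gene was called within a region, the same Pcdh7, and 0 in the hippocampal layers. Pcdh1 in the hippocampal layers reversed to 0.0702 with single-spot scores. The cause of these changes was not tested, except that no filter tests more genes and leaving out a section uses fewer samples. With sums thinned to the smallest total, no gene of the set passed the filter between regions, so that no value was given. Of the 43 genes described, 30 did not pass the filter on low counts between regions, and 16 of them (53.3%) were called in a region with no filter, beside 45.0% of all genes so left out with at least 50 UMIs.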
